A study of Homo sapiens and Mus musculus with 54 samples.

Results

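The classical gene battery of the aryl hydrocarbon receptor (AhR) was examined through 7 human genes, CYP1A1, CYP1A2, CYP1B1, NQO1, ALDH3A1, UGT1A1 and UGT1A6. They were taken from a list of names, and entries of 4 HepG2 ChIP-seq lists were assigned to a gene when they lay within 50 kb of its RefSeq gene body in hg38. All 7 symbols were found among 19974 protein-coding genes. HepG2 is a human liver cancer cell line, here the only human cell source, and it was labelled as control or vitamin B2-deficient (B2_minus) at day 12. AhR and C/EBPα ChIP had 2 control and 2 B2-deficient libraries each, and H3K27ac ChIP had 5 of each. In a further H3K27ac experiment DMSO was given to control cells (2 libraries) and to B2-deficient cells (2 libraries), and other B2-deficient cells (2 libraries) received an AhR inhibitor whose name the labels leave out. There were 6 HepG2 inputs, of which 2, from B2-deficient cells, are titled for AhR and C/EBPα together. The other libraries came from mice and were not used here.

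AhR is a transcription factor that waits in the cytosol with HSP90 and moves to the nucleus when a ligand binds. There it pairs with ARNT and binds the xenobiotic response element, whose core is GCGTG, and it drives enzymes that clear aromatic compounds. C/EBPα is a transcription factor of hepatocytes, and H3K27ac is an acetylated histone residue found at enhancers and promoters in use. Vitamin B2 is the precursor of FMN and FAD. NQO1 holds FAD, and the P450 enzymes of the CYP1 family receive their electrons from a reductase that holds both.

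The lists gave positions only, so each entry is called a peak (a region for H3K27ac). No list carried a value for a library. Read depth is therefore unknown, no effect of B2 supply or inhibitor could be measured, and the condition in which a peak was called is not stated. Each name ends in a number, the merge number, which was read as how many called peaks were merged into the entry. Of the H3K27ac lists, 1 is named for the inhibitor experiment and is called the inhibitor list. The other is called the main list and is used wherever no list is named. Its name does not limit it to control cells. All but 12.6% of its regions had identical coordinates in the inhibitor list, so the H3K27ac lists are not independent checks of each other. Regions of the main list lay within 50 kb of 90.4% of all protein-coding genes, with a median of 7.0 regions. They lay within 50 kb of 8 of 8 hepatocyte markers (median 40.0 regions), 5 of 5 leukocyte and macrophage markers (median 6.0), 3 of 4 endothelial markers (median 13.5) and 3 of 4 stellate cell and fibroblast markers (median 10.5). Beside the background, the presence of a region does not set these marker lists apart. KDR, an endothelial receptor, had no entry in any list.

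The promoters of 5 of the 7 genes were in the RefSeq table of GRCh38.p14, with 6 windows of 300 bases because UGT1A6 has 2 start sites. Each window runs from 250 bases before the start site to 50 bases into the transcript. CYP1B1 and ALDH3A1 were not in this table. Both strands were searched for GCGTG and for the longer form TNGCGTG, whose matches always hold the core. The 3 windows with a match are printed because they differ in where AhR peaks lay, with the matched letters in capitals.
CYP1A1 (chr15:74725479-74725778, minus strand): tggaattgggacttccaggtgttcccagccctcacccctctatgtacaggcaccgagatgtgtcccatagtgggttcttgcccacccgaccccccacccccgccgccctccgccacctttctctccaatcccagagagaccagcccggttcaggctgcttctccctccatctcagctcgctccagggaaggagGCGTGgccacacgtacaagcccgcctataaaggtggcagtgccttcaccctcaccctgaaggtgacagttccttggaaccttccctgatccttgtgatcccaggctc
NQO1 (chr16:69726511-69726810, minus strand): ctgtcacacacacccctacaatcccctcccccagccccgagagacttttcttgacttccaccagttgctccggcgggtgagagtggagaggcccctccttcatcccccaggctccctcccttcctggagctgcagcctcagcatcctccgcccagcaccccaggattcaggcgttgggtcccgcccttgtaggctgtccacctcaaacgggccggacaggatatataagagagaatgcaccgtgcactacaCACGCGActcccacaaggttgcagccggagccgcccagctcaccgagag
UGT1A6, upstream start (chr2:233691452-233691751, plus strand): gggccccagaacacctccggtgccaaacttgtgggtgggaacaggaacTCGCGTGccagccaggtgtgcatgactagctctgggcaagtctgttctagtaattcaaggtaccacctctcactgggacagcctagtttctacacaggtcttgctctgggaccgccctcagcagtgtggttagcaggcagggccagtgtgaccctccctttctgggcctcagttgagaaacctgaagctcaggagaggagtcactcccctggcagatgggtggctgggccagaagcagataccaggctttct

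At CYP1A1 the core was at -57 to -53 from the start site, and the nearest AhR peak lay 156 bp outside the window. NQO1 held the long form on the opposite strand at 2 to 8, just past the start site, and an AhR peak covered 145 bases of this window, from -95 to 50, with the match inside. UGT1A6 held the long form at -202 to -196 of its upstream start site, and the nearest AhR peak lay 2376 bp away. Of all 35116 promoter windows in the table, 36.5% held GCGTG and 5.51% held TNGCGTG, and an AhR peak overlapped 6.28%. A single member gene of the 5, NQO1, had such an overlap. C/EBPα peaks and H3K27ac regions overlapped none of the 6 windows, against 8.4% and 3.16% of all windows. The windows of CYP1A2, UGT1A1 and the downstream start of UGT1A6 held no GCGTG. TGACNNNGC, a form of the antioxidant response element, had its only match at the downstream start of UGT1A6 and was in 13.3% of all windows. The C/EBP motif TTGCNNAA was in none of the 6 and in 10.5% of all windows. These matches describe letters in a short window and are not evidence of a site in use.

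All 7 genes had at least 1 AhR peak within 50 kb, against a background of 85.4% of protein-coding genes, so having a peak was common. All 7 also had a C/EBPα peak (background 88.6%), an H3K27ac region of the main list (90.4%) and one of the inhibitor list (88.1%). Within 10 kb, 7 of 7 had an AhR peak (background 64.6%), 6 of 7 a C/EBPα peak (70.8%; not CYP1A2) and 4 of 7 an H3K27ac region (72.9%). In or across the gene body, CYP1A1, NQO1, UGT1A1 and UGT1A6 had an AhR peak (4 of 7, background 47%), and the same 4 genes had a C/EBPα peak there (background 51.4%). With 7 genes that share loci, no presence count here sets the battery apart from other genes. NQO1 had 11 AhR peaks, UGT1A6 had 10, ALDH3A1 had 9, CYP1A2 had 8, CYP1A1 and UGT1A1 had 7 each, and CYP1B1 had 2. The median gene had 4.0. As many AhR peaks as NQO1, or more, were held by 10.3% of genes, and the corresponding share was 13.2% for UGT1A6 and 73.2% for CYP1B1. Longer genes have longer windows, and UGT1A6 spans 81599 bp. Per 100 kb of window the order was NQO1 with 9.39 AhR peaks, ALDH3A1 with 8.16, CYP1A2 with 7.42, CYP1A1 with 6.6, UGT1A1 with 6.19, UGT1A6 with 5.51 and CYP1B1 with 1.84. The median gene had 2.58 on this scale, so 6 of the 7 genes lay above it and CYP1B1 below. As high a density as that of NQO1, or higher, was held by 3.75% of genes. The corresponding share was 18.6% for UGT1A6 and 60.1% for CYP1B1, and the remaining genes lay between NQO1 and UGT1A6. The 6 genes are not independent, because CYP1A1 shares AhR peaks with CYP1A2, and UGT1A1 with UGT1A6. The order depends on the counting rule. With each AhR peak counted for its nearest gene only (tied genes each counted), UGT1A6 had 9, CYP1A1 had 5 and ALDH3A1 had 3. By that rule CYP1A2, CYP1B1, NQO1 and UGT1A1 had 2 each. These are single counts with no replicate error, and neighbours in either order were not tested against each other.

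**Figure D1:**
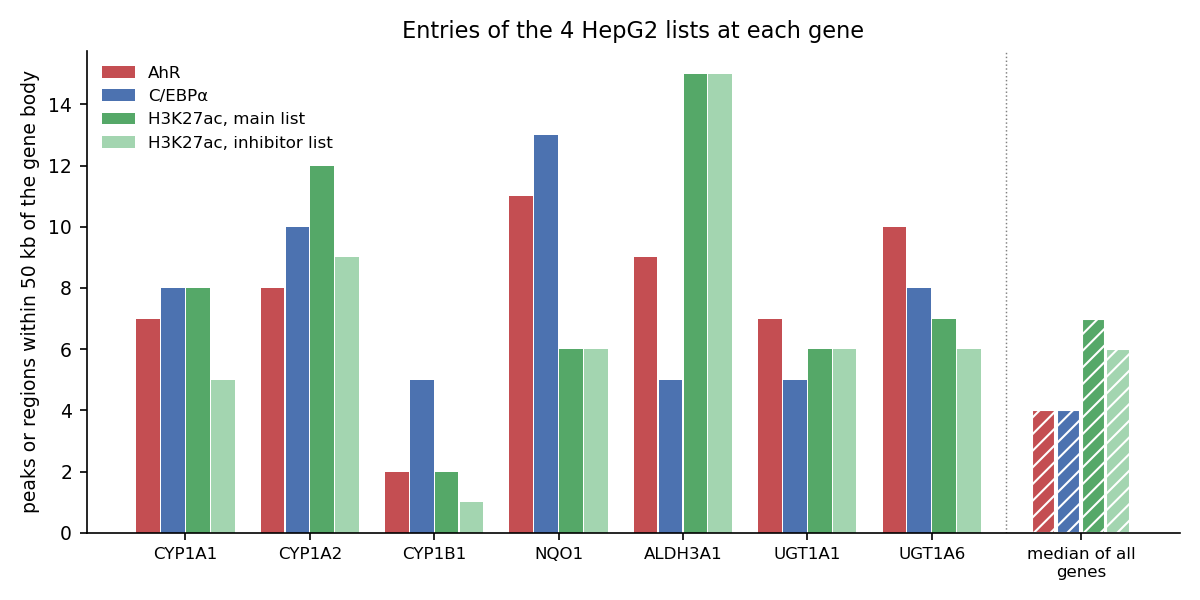
Number of AhR peaks, C/EBPα peaks and H3K27ac regions (main and inhibitor lists) within 50 kb of each gene body, with the medians of all 19974 protein-coding genes hatched on the right. NQO1 has the most AhR and C/EBPα peaks (11 and 13), ALDH3A1 has the most H3K27ac regions (15 in each list), and CYP1B1 has the fewest AhR peaks and H3K27ac regions.

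**Figure D2:**
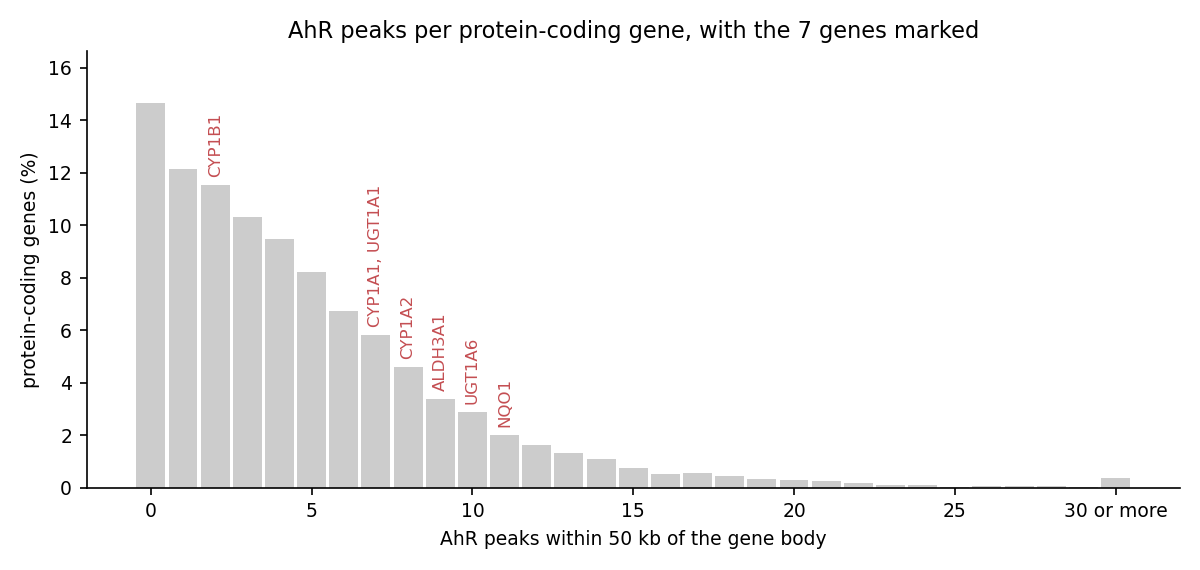
Share of protein-coding genes (y axis, %) by their number of AhR peaks within 50 kb (x axis, counts of 30 or more pooled), with the 7 genes named above the bars of their counts. CYP1B1, with 2 AhR peaks, lies below the median of 4.0, and the other genes, with 7 to 11, lie above it.

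Members share loci and are not independent. The CYP1A1 and CYP1A2 windows had 7 AhR peaks in common, and every AhR peak counted for UGT1A1 was counted for UGT1A6 too. Counted once, the 5 loci held 40 AhR peaks, 42 C/EBPα peaks and 42 H3K27ac regions of the main list. The rule stops at 50 kb: the farthest AhR peak inside it lay 45065 bp from NQO1, and the nearest one outside it lay 50987 bp from ALDH3A1.

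CYP1A1 (gene ID 1543, chromosome 15, 74719542 to 74725528, minus strand) encodes the P450 that oxidises polycyclic aromatic hydrocarbons. Its AhR peaks formed a row around the gene. Along the direction of transcription, peak centres lay 5602.5, 989 and 538 bp before the start site, then 1720.5 bp after it inside the gene, and 8762.5 bp after it beyond the 3′ end. All 5 had a merge number of 2. The outermost pair overlapped C/EBPα as well as H3K27ac, the peak at 989 bp overlapped C/EBPα alone, and the peaks at 538 and 1720.5 bp overlapped neither. Within 10 kb of the gene body CYP1A1 thus had 5 AhR peaks, a number that 15.3% of genes reached.

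CYP1A2 (gene ID 1544, chromosome 15, 74748845 to 74756607, plus strand) encodes a P450 of liver that handles caffeine and arylamines. It had no AhR peak in its body. A peak with a merge number of 1 was centred 2027.5 bp before its start site and overlapped neither partner, and a peak with a merge number of 2 lay 3671 bp past its other end and overlapped H3K27ac alone. The last peak of its window, at 74779907 to 74780147, lay nearest to CSK, a kinase gene, and also overlapped neither. Merged AhR peaks (merge number 2 or more) made up 7 of the 8 at this locus, so that CYP1A2 had 7 merged AhR peaks within 50 kb and CYP1A1 had 6. These numbers were reached by 5.3% and 7.74% of genes, and the median gene had 1.0. Most merged peaks counted for CYP1A2 lay nearest to CYP1A1. With each AhR peak counted for its nearest gene only, merged or not, CYP1A2 had 2 and CYP1A1 had 5. Within 10 kb CYP1A2 had 2 AhR peaks, a number that 43.4% of genes reached. At least 1 merged AhR peak was present at 6 of the 7 genes, against 66.3% of all genes. Of the 11 C/EBPα peaks at the locus, 3 overlapped an AhR peak.

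CYP1B1 (gene ID 1545, chromosome 2, 38067509 to 38076151), a P450 of tissues outside the liver as well as of tumours, was the sparsest locus. Both AhR peaks, at 38077486 to 38077725 and 38096303 to 38096530, had a merge number of 1 and overlapped neither partner. None of its 5 C/EBPα peaks overlapped AhR, and 4 of these had a merge number of 1. The nearest H3K27ac region lay 33652 bp from the gene in the main list and 39127 bp in the inhibitor list. Having at least 1 AhR peak that overlaps both partners was the background state, at 62.2% of genes, and CYP1B1 was the 1 member without it.

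NQO1 (gene ID 1728, chromosome 16, 69709401 to 69726560, minus strand) encodes a quinone reductase and is driven by both AhR and NRF2. A peak with a merge number of 1 lay across its start site, at 69726442 to 69726655, and overlapped neither partner. Another, at 69723829 to 69724074, was centred 2608.5 bp inside the gene, had a merge number of 2 and lay 2 bp, centre to centre, from a C/EBPα peak with a merge number of 3. The other 9 lay nearest to neighbours: 6 to NFAT5, 1 to NOB1 and 2 to WWP2. All 5 of the peaks with both partners were among these 9, and the nearest H3K27ac region lay 21760 bp from the NQO1 body. The counts at NQO1 within 50 kb are thus largely counts at its neighbours, and 3 AhR peaks were left within 10 kb.

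ALDH3A1 (gene ID 218, chromosome 17, 19737984 to 19748298) encodes an aldehyde dehydrogenase. An AhR peak at 19748330 to 19748701 lay 32 bp beyond one gene end, had a merge number of 2 and overlapped neither partner. On the other side, merged peaks lay 1684 bp from the gene with H3K27ac alone and 3579 bp from it with both partners. Of the remaining 6, 5 lay nearest to SLC47A2, a transporter gene, and 1 to ULK2. Among the 7 genes H3K27ac was densest here, with 15 regions in each list against medians of 7.0 and 6.0 over all genes. As many or more were held by 21.6% of genes in the main list and 19.3% in the inhibitor list. The median of the 8 other aldehyde dehydrogenase genes was 14.5 in both lists. Whether any of them shares regions with ALDH3A1 was not tested. Of the 15 regions of the main list, 4 lay within 10 kb of ALDH3A1.

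UGT1A1 (gene ID 54658, chromosome 2, 233760270 to 233773300, plus strand) encodes the enzyme that conjugates bilirubin, and UGT1A6 (gene ID 54578, 233691702 to 233773300) an enzyme that conjugates small phenols. Both read from their own promoters into shared last exons, so a peak late in the locus lies inside both genes. Peaks centred 3318.5 and 14663 bp before the UGT1A1 start site were the merged ones of the 10 AhR peaks, and each overlapped a C/EBPα peak with a merge number of 3 and no H3K27ac region. A phenobarbital-responsive enhancer is known upstream of UGT1A1, and whether the nearer peak coincides with it was not tested. Peaks centred 1228.5 and 4196.5 bp after the UGT1A1 start site had a merge number of 1. Near UGT1A6, peaks were centred 1351 and 2158 bp after its downstream start site, the nearer with C/EBPα alone and the farther with neither. The single peak with both partners, at 233736733 to 233736963, lay inside UGT1A6 and 23307 bp before the UGT1A1 body. UGT1A6 was the only one of the 7 genes with an H3K27ac region in its body, 3 of them, where 51.8% of all genes had at least 1. These 3 lay together, from 233736308 to 233737307, and the AhR peaks that overlap them lie in the 7 other UGT1A genes too. C/EBPα peaks numbered 8 in the UGT1A6 body, a number that 5.22% of genes reached. Neither body count is scaled for length. The UGT1A6 body of 81599 bp compares with a median gene length of 24.2 kb, and the longest other member body, NQO1, had 17160 bp. Within 50 kb UGT1A6 also had 8 C/EBPα peaks, which 26.2% of genes reached, and the 7 other UGT1A genes had a median of 8.0.

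**Figure D3:**
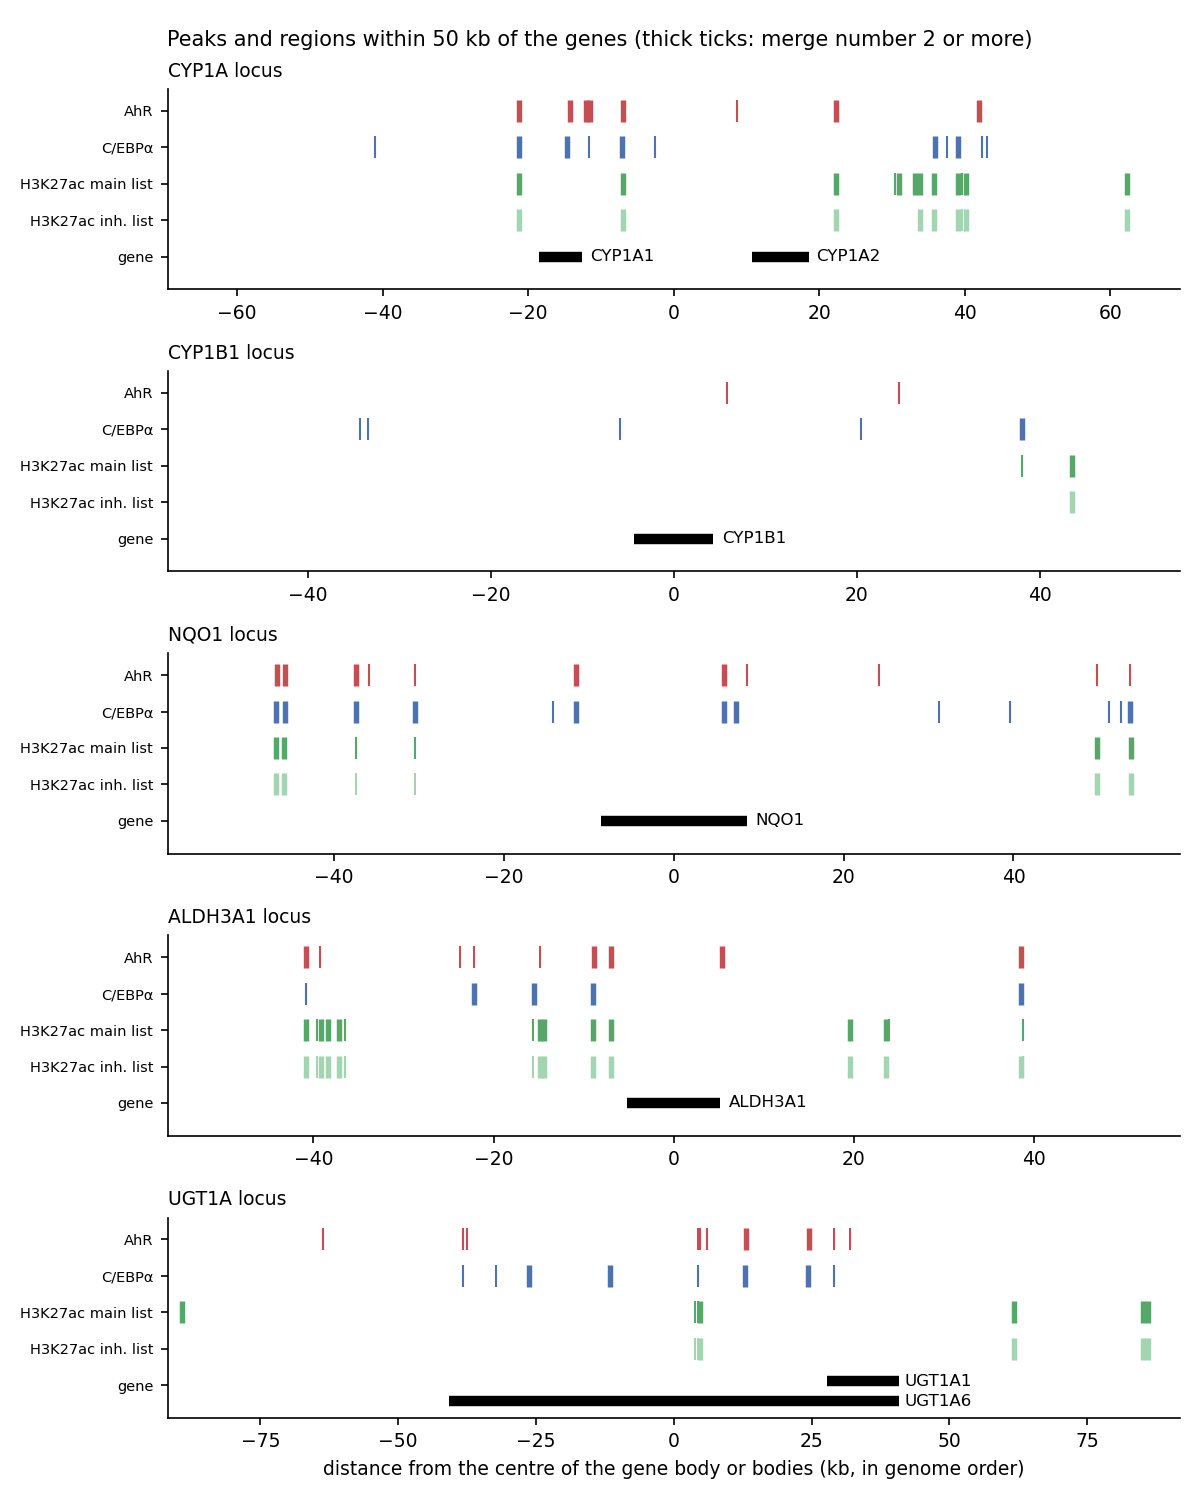
Positions of AhR peaks, C/EBPα peaks and H3K27ac regions at the 5 loci, in kb from the centre of the gene body or bodies (black bars) in genome order; thick ticks have a merge number of 2 or more. AhR peaks sit around CYP1A1 with a merge number of 2, CYP1B1 has 2 thin AhR ticks, and most NQO1 entries lie beyond the gene.

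The next question was what AhR peaks coincided with at these genes. A C/EBPα peak overlapped 19 of the 40 AhR peaks (47.5%, exact 95% binomial interval 31.5 to 63.9), against 55.3% of all 56739 AhR peaks. An H3K27ac region overlapped 16 of 40 (40.0%, interval 24.9 to 56.7), against 70.7% of the whole list, which lies above this interval. The inhibitor list, which shares most regions with the main list, gave 17 of 40 (42.5%) against 65.8%. Both partners were present at 10 of 40 (25.0%, interval 12.7 to 41.2) against 41.1%, and neither at 15 of 40 (37.5%, interval 22.7 to 54.2) against 15.1%. C/EBPα alone was present at 9 of 40 (22.5%) against 14.2%, and H3K27ac alone at 6 of 40 (15.0%) against 29.5%. Read the other way, 19 of 42 C/EBPα peaks (45.2%) overlapped AhR against 50.1% of that list, and 16 of 42 H3K27ac regions (38.1%) did against 37.8%. These intervals cover counting error only and are too narrow, because neighbouring peaks share a locus. CYP1A contributed 4 of the 15 peaks with neither partner, UGT1A 4, NQO1 3, and ALDH3A1 and CYP1B1 2 each. Where C/EBPα overlapped, its centre lay 2 to 101 bp from the AhR centre, with a median of 31 bp against 21.5 bp in the whole list. Merged AhR peaks were 19 of 40 (47.5%) against 42.3%. Their share ran from 7 of 8 at CYP1A to 2 of 10 at UGT1A and 0 of 2 at CYP1B1. Of C/EBPα peaks, 22 of 42 (52.4%) had a merge number of at least 2 against 59.6% of that list, and 15 of 42 (35.7%) had at least 3 against 39%. Of the 15 AhR peaks with neither partner 4 were merged, where 13.3% of such peaks in the whole list were. Apart from a peak at ALDH3A1, these merged peaks were all at the CYP1A locus.

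**Figure D4:**
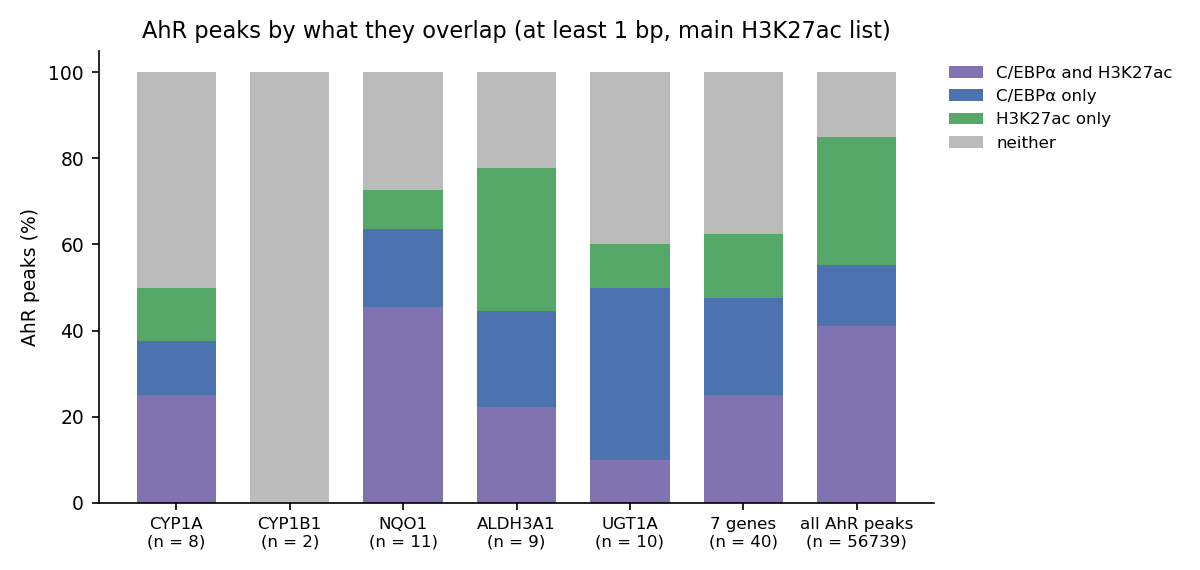
Share of AhR peaks (y axis, %) that overlap C/EBPα and H3K27ac, C/EBPα only, H3K27ac only or neither, at each locus, over the 7 genes and in the whole list, with the number of AhR peaks under each bar. Peaks with neither partner make up 37.5% at the 7 genes and 15.1% of the whole list.

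Distance from start sites moved with the H3K27ac share. Both H3K27ac lists, which share most of their regions, had a step at 3 kb from RefSeq start sites. The main list had 646 regions centred from 2500 to 3000 bp and 2001 from 3000 to 3500 bp, a ratio of 3.1, which was also the ratio of the inhibitor list. The same ratio was 0.945 for AhR and 0.936 for C/EBPα. What made the step was not tested. AhR peaks within 3 kb of a start site (or of either gene end, for the 4161 protein-coding genes with no start site in the table) were 15 of 40 at the 7 genes (37.5%, exact interval 22.7 to 54.2) and 15.1% of the whole list. H3K27ac overlapped 1 of these 15 (6.67%, interval 0.169 to 31.9), the ALDH3A1 peak at 1684 bp, against 21.1% of such peaks in the whole list. That peak was counted through a gene end and lay 17207.5 bp from the nearest start site in the table. By start sites in the table alone 11 of 40 lay within 3 kb, without that peak, against 12.9% of the whole list. Beyond 3 kb of start sites or such gene ends, H3K27ac overlapped 15 of 25 (60.0%, interval 38.7 to 78.9). The whole list had 79.5%, which lies just above this interval. The lack of an H3K27ac region at the CYP1A1 and NQO1 start sites therefore cannot be read as a lack of acetylation. The classes of AhR peaks with C/EBPα alone and with neither partner rest on the same list and carry the same limit.

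**Figure D5:**
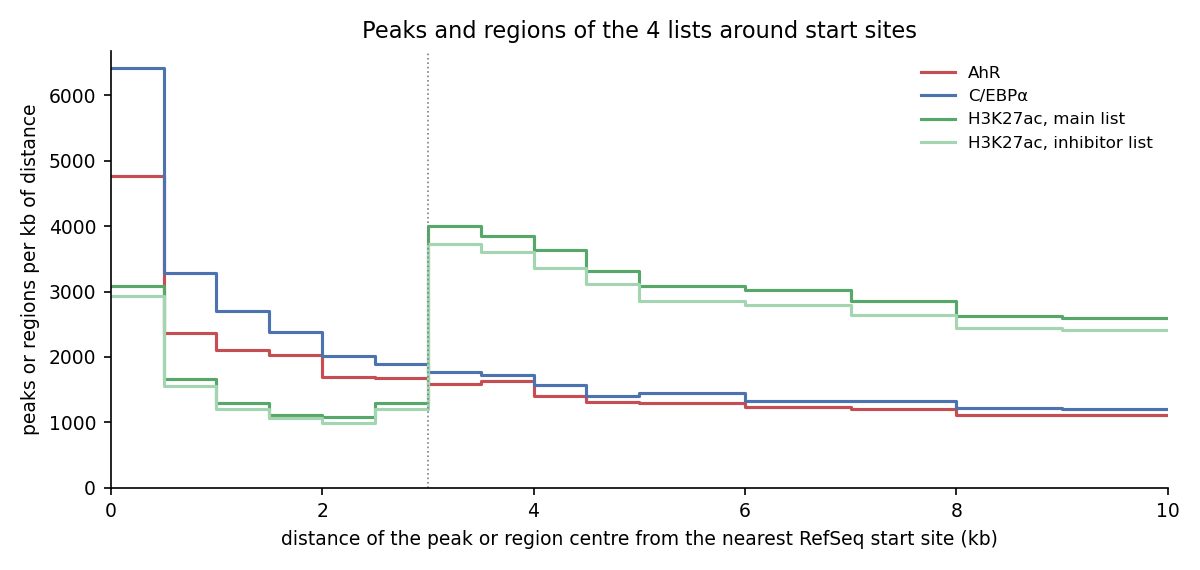
Number of peaks or regions per kb of distance (y axis) by the distance of their centre from the nearest RefSeq start site (x axis, kb), in steps of 500 bp up to 5 kb and 1 kb beyond, for the 4 HepG2 lists; the dotted line marks 3 kb. Both H3K27ac lists rise 3.1-fold across 3 kb, and the AhR and C/EBPα lists do not.

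The 2 H3K27ac lists were then compared at the 7 genes. Of 42 regions in the main list, 36 had identical coordinates in the inhibitor list and 6 did not (14.3%, exact interval 5.43 to 28.5), against 12.6% of that whole list. The 6 comprised 3 regions past the end of CYP1A2, at 11819, 12261 and 14480 bp from it, and 1 each at CYP1B1 (33652 bp away), ALDH3A1 (18659 bp) and UGT1A6 (48253 bp). None of these 6 overlapped an AhR peak, and 23.2% of all such regions did. A single region of 37 was in the inhibitor list alone (2.7%, interval 0.0684 to 14.2), against 4.06% of that list. It lay at 19781509 to 19781821, 33211 bp from ALDH3A1, and overlapped the AhR peak at 19781535 to 19781776, which also overlapped a C/EBPα peak. Right beside it, at 19781840 to 19782062, both lists held a region that did not reach this AhR peak. Which libraries went into either list is not stated, so these regions do not compare DMSO with the inhibitor.

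Other genes of the pathway were read from 6 lists of names by the same rule. All 7 genes of AhR, its partners and its feedback had an AhR peak, with a median of 5.0 against 8.0 for the battery and 4.0 for all genes. The most were at TIPARP, an AhR-induced ADP-ribosyltransferase, with 8. All 12 NRF2 genes other than NQO1 had one, with a median of 7.0 and the most, 12, at OSGIN1 and ABCC2. The 12 other P450 genes all had one as well, with a median of 3.0 and the most, 12, at CYP3A4, the main drug-metabolising P450 of liver. Aldehyde dehydrogenase genes other than ALDH3A1 had one in 7 of 8 cases, with a median of 7.0 and 16 at ALDH3A2, while ALDH1A3 had none. Whether the ALDH3A2 window shares peaks with that of ALDH3A1 was not tested. Other conjugation genes had one in 9 of 10, with a median of 8.0 and 17 at UGT2B7, while NAT2 had none. The 7 other UGT1A genes overlap UGT1A1 and UGT1A6 and share most of their peaks, with 9 to 12 each and the most at UGT1A8 and UGT1A10. At the 8 hepatocyte markers the median was 16.0 AhR peaks, above that of the battery. It was 8.0 at the 4 endothelial markers, the same as for the battery. The leukocyte and macrophage markers had a median of 7.0, and the stellate cell and fibroblast markers 3.5. Per 100 kb of window the order changed. The battery had a median of 6.6, hepatocyte markers 12.9, leukocyte and macrophage markers 6.83, endothelial markers 4.51, stellate cell and fibroblast markers 2.5. Other conjugation genes had 6.82, NRF2 genes 5.43, other UGT1A genes 5.22 and other aldehyde dehydrogenase genes 5.14. AhR, its partners and its feedback had 3.2, other P450 genes 2.31 and all genes 2.58.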

How the data were processed

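ChIP-seq peak lists from HepG2 were used as deposited by the authors; each of the 4 lists has 5 columns (name, chromosome, start, end and a strand sign). The submitters' processing notes name Bowtie2, HOMER and the build hg38, without versions; peak-calling settings, filters and merged sets are not stated. Per the labels, chromatin for AhR and C/EBPα was crosslinked with disuccinimidyl glutarate and then formaldehyde, that for H3K27ac with formaldehyde, in biological replicates. The 2 mouse lists were not used here. The lists used hold no value per library, so depth is unknown, no condition was tested and all counts are descriptions.

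An entry was assigned to a gene when the gap to its RefSeq body (GRCh38.p14) was at most 50 kb. Overlap needed 1 bp. Shares have exact (Clopper-Pearson) 95% binomial intervals. Alternatives were windows of 10 and 100 kb, nearest gene only, merged peaks, 50% overlap, centres within 500 bp, the inhibitor list, each locus left out and, chosen after seeing the data, peaks beyond 3 kb of start sites. The members and gene lists were chosen with earlier results of these data known. Every member was named. Other genes were named where they lay nearest to a member's AhR peaks, had the most AhR peaks of a list, or had none in a list of 10 genes or fewer. The routines were tested on simulated data, with 2000 of 2000 overlap calls, 400 of 400 window counts and 500 of 500 planted motifs right. Software was Matplotlib 3.10.9, SciPy 1.17.1, pandas 2.3.3, NumPy 2.4.6 and Python 3.11.15.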

Additional observations from a re-analysis of the deposited data

How the results depend on the processing

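The number of the 7 genes with an AhR peak stayed at 7 in every window and fell to 6, without CYP1B1, for merged peaks. With a window of 10 kb, 100 kb, nearest gene only and merged peaks only, the distinct AhR peaks numbered 24, 68, 23 and 19, and the C/EBPα peaks 19, 69, 18 and 22. The H3K27ac regions numbered 10, 84 and 13 in the first 3 of these settings. Within 10 kb, 4 of the 7 genes had an H3K27ac region, against 72.9% of all genes. These settings change the count by their construction. The share of AhR peaks with an H3K27ac region was 60.0% beyond 3 kb of start sites. In every other setting run, it and the share with C/EBPα kept within the intervals printed above. Of these settings the inhibitor list is no independent check, because it shares most regions with the main list. Leaving out each locus in turn gave 29 to 38 AhR peaks, 41.4% to 50.0% with C/EBPα and 34.5% to 46.7% with H3K27ac. TNGCGTG was in the promoters of 2 genes against 3 for GCGTG. No paired analysis was possible because the lists hold no value per library, and for the same reason no replicate could be left out. Depth is unknown and limits every absence.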

Other observations

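Over all promoter windows of the RefSeq table, those with an AhR peak held TNGCGTG in 10.4% of 2205 cases and those without in 5.18% of 32911. For GCGTG these shares were 46.1% and 35.9%. Their median GC content was 61.3% and 58.3%. In the 5 classes of GC content, from lowest to highest, TNGCGTG was in 1.47%, 4.94%, 12.3%, 14.9% and 13.5% of windows with an AhR peak, and in 1.62%, 3.81%, 6.69%, 7.92% and 5.85% of those without. NQO1, with a GC content of 62.7% in its window, falls in the fourth class. Genes have several windows and share promoters, so these windows are not independent, and no test was run.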
